A study of Mus musculus with 15 samples.

Results

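A set of genes used as markers of thalamic neurons was followed across the brain libraries of a mouse stroke study: Tcf7l2, Prkcd, Rora, Slc17a6, Calb2, Lef1, Synpo2, Plekhg1 and Ramp3. They are the 9 rows with these symbols among the 18931 genes of the deposited table (the rule names symbols and sets no threshold on a measured value). Brain messenger RNA of the outbred Kunming stock was sequenced in 15 libraries. They form 5 groups of 3, labelled sham, vehicle, JA, UA and JU, and every label, sham included, also carries the abbreviation MCAO, for blockage of the middle cerebral artery. The study title names jasminoidin, an iridoid glycoside, combined with ursodeoxycholic acid, a bile acid, against injury from cerebral ischemia and reperfusion, but the labels do not spell out JA, UA and JU. No genetic change is given for any group. The sources used here give no brain region, hemisphere, age, sex, dose or time after surgery. Nor do they state whether each library is a different animal. A p-value below therefore reflects only how these libraries vary, which may be technical.

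The thalamus relays sensory and motor signals to the cortex through glutamatergic neurons that load their vesicles with the transporter encoded by Slc17a6 (VGLUT2). Tcf7l2 and Lef1 encode partners of beta-catenin at the end of the Wnt pathway, and both transcription factors persist in thalamic neurons after development. None of the 9 genes is made in the thalamus alone: Prkcd is also made by myeloid cells, Calb2 by cortical and other interneurons, Tcf7l2 by the oligodendrocyte lineage, Rora by other neurons and astrocytes, and Synpo2 by smooth muscle.

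All 9 genes were detected in every library, with between 62 (Tcf7l2) and 1890 (Rora) counts, and all passed the filter on low counts. They did not share a single pattern over the libraries, so they are described below gene by gene and not as the level of a cell type. Levels are CPM, read counts divided by library size with TMM factors, except where FPKM, which also divides by transcript length, is named. Total counts were 18346180 to 20447465 per library, and a detection floor of 3 counts equals 0.147 to 0.1635 CPM (counting error only). JU replicate 1 stood apart from the other libraries. Its summed level of 9 myeloid markers was 15823 CPM, against 290.5 to 6688 CPM elsewhere, and its summed level of 9 pan-neuronal markers was 4156 CPM, against 6524 to 11442 CPM. Results for the 9 genes that it moved most are also given without it.

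Promoter sequences are shown for Tcf7l2 and Prkcd, a pair whose levels moved together over the libraries, and for Slc17a6, whose vehicle and sham levels lay furthest apart. Each is the 250 bases before a RefSeq transcription start, 5′ to 3′ on the strand of the gene, on GRCm38.p6. The windows are chr19:55741560-55741809 (plus strand) for Tcf7l2, chr14:30626209-30626458 (minus strand) for Prkcd and chr7:51621580-51621829 (plus strand) for Slc17a6. Capitals mark GC boxes (GGGCGG, or CCGCCC on the other strand). Each of these genes has another RefSeq start, whose window holds no GC box and is not shown.
Tcf7l2: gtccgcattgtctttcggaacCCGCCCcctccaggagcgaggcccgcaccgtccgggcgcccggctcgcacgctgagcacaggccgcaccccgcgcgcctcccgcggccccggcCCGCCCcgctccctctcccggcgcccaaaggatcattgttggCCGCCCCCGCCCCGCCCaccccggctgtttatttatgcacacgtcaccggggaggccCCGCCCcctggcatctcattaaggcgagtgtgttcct
Prkcd: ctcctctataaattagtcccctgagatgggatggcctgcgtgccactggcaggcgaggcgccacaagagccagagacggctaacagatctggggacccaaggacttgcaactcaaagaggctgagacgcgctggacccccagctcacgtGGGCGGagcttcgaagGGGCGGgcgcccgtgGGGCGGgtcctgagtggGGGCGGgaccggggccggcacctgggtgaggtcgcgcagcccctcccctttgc
Slc17a6: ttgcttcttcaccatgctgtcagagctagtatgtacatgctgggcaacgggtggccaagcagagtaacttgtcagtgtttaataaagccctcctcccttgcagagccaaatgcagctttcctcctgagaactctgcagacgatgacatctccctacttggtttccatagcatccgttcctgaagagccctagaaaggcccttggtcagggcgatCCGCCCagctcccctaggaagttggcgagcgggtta
The Tcf7l2 window shown holds GC boxes that abut or overlap one another, and the Prkcd window shown has its boxes on the strand of the gene. RefSeq start sites were found for 8 of the 9 genes, 14 in all, with none for Calb2 in the table used. A GC box on either strand was in 8 of the 14 windows (57.14%), against 32.74% of 32851 mouse promoter windows of the same length. The windows are not all separate: Lef1 gave 3 of the 8, and 2 of these share 224 bases and 1 box. By gene, 6 of 8 had a box in at least 1 window. No share by gene was computed over all genes, so this count cannot be set against the 32.74% of windows. The letters CTTTGAT, a core motif of TCF and LEF factors, were searched on both strands and were in 0 of the 14 windows (3.21% of all). AGGTCA, the core site of ROR receptors, was also in 0 of the 14 (14.02% of all).

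Per transcript length, the genes differed widely in level. Median FPKM over the 15 libraries was 20.2 for Calb2, a calcium buffer, and 10.3 for Ramp3, which modifies receptors for calcitonin-family peptides. It was 6.96 for Slc17a6, 6.48 for Prkcd (protein kinase C delta) and 5.03 for Rora, a nuclear receptor. Below these stood Lef1 at 1.38, Plekhg1 at 1.22, Tcf7l2 at 0.893 and Synpo2, an actin-binding protein, at 0.693. The ranges of neighbours in this order overlapped, except that the lowest Rora library (3.59 FPKM) lay above the highest of Lef1 (1.90 FPKM). For instance, Slc17a6 ran from 1.73 to 12.1 FPKM and Prkcd from 2.90 to 22.1 FPKM.

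Slc17a6, the vesicular glutamate transporter of thalamic relay cells and of many other subcortical neurons (Entrez 140919; chromosome 7, 51622006 to 51671119, GRCm38), gave the clearest separation of vehicle from sham. Its level was 46.6, 54.5 and 40.0 CPM in sham replicates 1 to 3, and 19.7, 21.2 and 23.3 CPM in vehicle replicates 1 to 3. JA had 30.9, 31.7 and 32.05 CPM and UA had 31.97, 35.7 and 32.8 CPM, while JU had 7.72, 29.6 and 28.3 CPM. Sham lay above every other library, and the 3 vehicle libraries lay below every other library except JU replicate 1, the lowest of all. JA and UA lay between sham and vehicle, overlapped neither, and overlapped each other. In bulk RNA, fewer cells of a type and less RNA per cell cannot be told apart.

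Vehicle was set against sham to ask what the occlusion changed. The Slc17a6 mean was 47.0 ± 7.31 CPM (SD, n = 3) in sham and 21.4 ± 1.82 CPM in vehicle, a log2 fold change of -1.14 ± 0.34 (SE) that missed the threshold over all genes (edgeR quasi-likelihood test, Benjamini-Hochberg adjusted p = 0.0716). With JU replicate 1 left out of the fit, which does not enter the 2 means but does enter the shared estimate of spread, the adjusted p was 0.000387. Slc17a6 also passed when only the vehicle and sham libraries were fitted (adjusted p = 0.00685; 25.5% of genes called) and with DESeq2 (adjusted p = 0.0147). With a correction for GC content the log2 fold change was -0.93, with adjusted p = 0.22.

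Rora, a nuclear receptor needed for thalamic and cerebellar neurons (Entrez 19883; chromosome 9, 68653786 to 69388246), was the second gene with separate groups. Its level was 99.0, 98.5 and 74.6 CPM in sham and 70.1, 63.0 and 71.4 CPM in vehicle. JA had 83.0, 77.8 and 91.7 CPM, UA had 77.9, 78.3 and 76.2 CPM, and JU had 53.2, 72.8 and 73.6 CPM. Sham replicate 3 lay close to the vehicle libraries and well below the other sham libraries. The lowest 4 libraries were the same as for Slc17a6, namely JU replicate 1 and the 3 vehicle libraries. Its vehicle minus sham log2 fold change was -0.41 ± 0.13 (edgeR adjusted p = 0.0829), and -0.15 with the GC correction. Exons of Rora overlap those of Gm15511 on the opposite strand, and the strand setting of the counting is not given, so the counts of the pair may be mixed.

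Calb2, which encodes the calcium buffer calretinin (Entrez 12308; chromosome 8, 110137502 to 110168210), had 32.4, 36.4 and 46.3 CPM in sham and 25.7, 28.4 and 29.8 CPM in vehicle, again without overlap. JA stood at 28.5, 28.7 and 25.5 CPM and UA at 41.1, 39.9 and 28.8 CPM. JU had 7.51, 33.3 and 23.5 CPM, so replicate 1 was the lowest library here too. The vehicle minus sham log2 fold change was -0.46 ± 0.37 (edgeR adjusted p = 0.413). Ramp3 (Entrez 56089; chromosome 11, 6658521 to 6677475; exons shared with Gm11978 on the opposite strand) ranged from 4.78 CPM in JU replicate 1 to 21.5 CPM in sham replicate 2, and its sham and vehicle libraries overlapped.

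**Figure D1:**
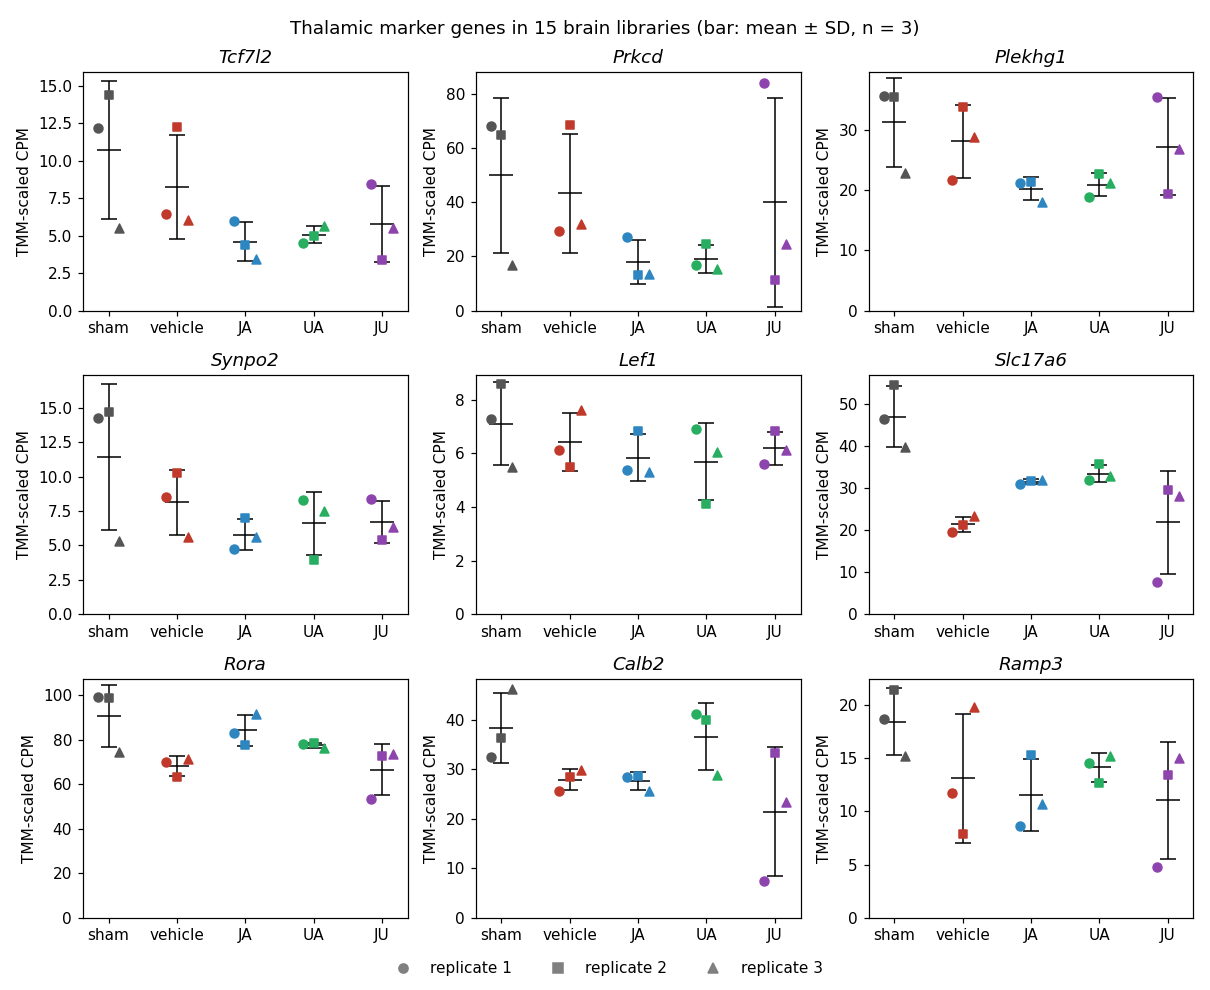
Level of each of the 9 genes (TMM-scaled CPM, linear axis from 0) by group, with 1 point per library, the replicate number as the symbol, and bars for the mean ± SD of 3 libraries. Slc17a6 separates sham from vehicle, while for Tcf7l2, Prkcd and Plekhg1 the high libraries are sham replicates 1 and 2, vehicle replicate 2 and JU replicate 1.

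Over all 9 genes, every vehicle minus sham log2 fold change was below 0, from -1.14 for Slc17a6 to -0.15 for Lef1, with a median of -0.41 against 0.00478 over the 15125 genes tested. None of the 9 passed the threshold over all genes with edgeR, which called 5.02% of the genes tested. At an unadjusted p under 0.05 there were 2 of the 9, Slc17a6 and Rora. DESeq2 called the same 2 lower, Rora and Slc17a6, while calling 16.6% of genes, and limma-voom called 0. Groups were separate, vehicle below sham, for 3 of the 9 (Slc17a6, Rora and Calb2), beside 24.7% of all genes. With JU replicate 1 left out, edgeR called Slc17a6, Rora (adjusted p = 0.00794) and Calb2 (adjusted p = 0.0435) lower, 3 of 9, beside 16.9% of genes called lower and 33.9% called in either direction. Values for markers of other cells moved in the same comparison: the 9 pan-neuronal markers summed to 10740.5 to 10989 CPM in sham and 6524 to 9041 CPM in vehicle, and the 9 myeloid markers to 290.5 to 319.7 and 2905 to 6688 CPM. No gene of either list was at 0 in any library. The part of these markers in the values of the 9 genes was not tested.

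**Figure D2:**
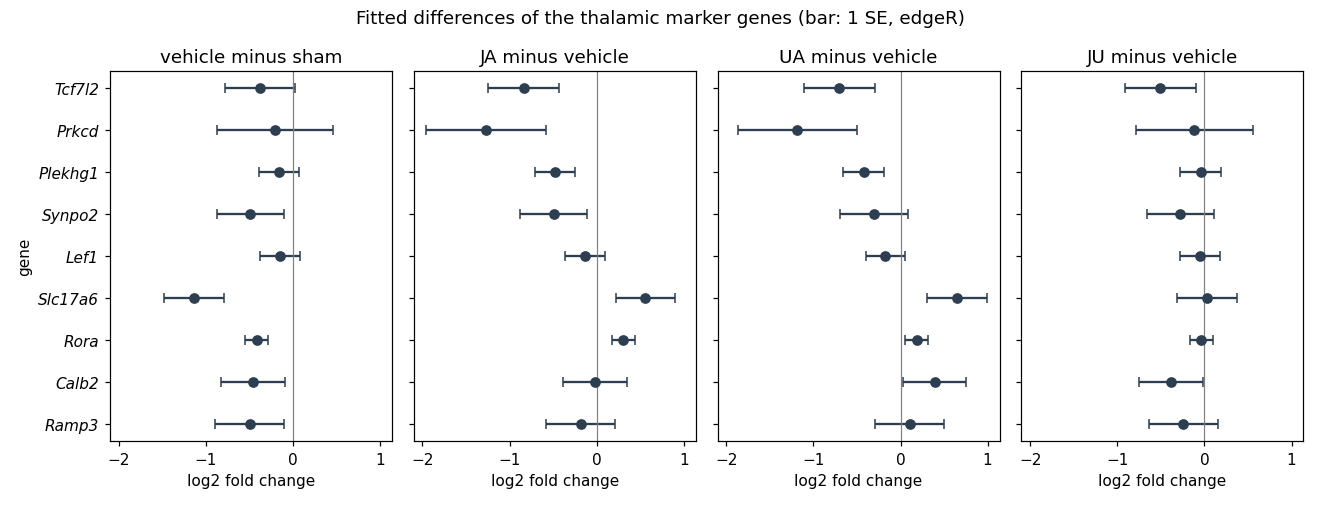
Fitted log2 fold change (points) with 1 SE (bars) from edgeR for each of the 9 genes, in 4 panels for vehicle minus sham and each treated group minus vehicle. All 9 points lie below 0 for vehicle minus sham, and in the JA and UA panels Slc17a6 and Rora lie above 0 while Tcf7l2, Prkcd, Plekhg1 and Synpo2 lie below.

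Tcf7l2 (Entrez 21416; chromosome 19, 55741820 to 55933654), a selector of thalamic identity as well as a Wnt effector, followed another pattern. Its level was 12.2, 14.4 and 5.53 CPM in sham and 6.45, 12.2 and 6.02 CPM in vehicle. JA had 5.99, 4.37 and 3.43 CPM, UA had 4.53, 4.99 and 5.64 CPM, and JU had 8.44, 3.39 and 5.52 CPM. Sham replicates 1 and 2 and vehicle replicate 2 were high, and sham replicate 3 lay below every vehicle library. The vehicle minus sham log2 fold change was -0.38 ± 0.40 (edgeR adjusted p = 0.544).

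Prkcd, which encodes protein kinase C delta (Entrez 18753; chromosome 14, 30595354 to 30626210), had the widest range of the 9, from 11.3 to 83.9 CPM, or 7.41-fold. It stood at 68.0, 64.6 and 16.8 CPM in sham and at 29.4, 68.5 and 31.7 CPM in vehicle. JA had 27.1, 13.3 and 13.3 CPM, UA had 16.9, 24.7 and 15.3 CPM, and JU had 83.9, 11.3 and 24.4 CPM. The 4 highest libraries were the same as for Tcf7l2: sham replicates 1 and 2, vehicle replicate 2 and JU replicate 1. Of these, the sham pair had myeloid marker sums of 290.5 and 292.3 CPM, the lowest of the 15 libraries. Vehicle replicate 2 and JU replicate 1 had the highest sums, 6688 and 15823 CPM. Sham replicate 3, with a myeloid sum of 319.7 CPM, had 16.8 CPM of Prkcd. High Prkcd thus occurred at both ends of the range of myeloid sums, and low Prkcd occurred at low sums too. The part of myeloid cells in these levels was not tested.

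**Figure D3:**
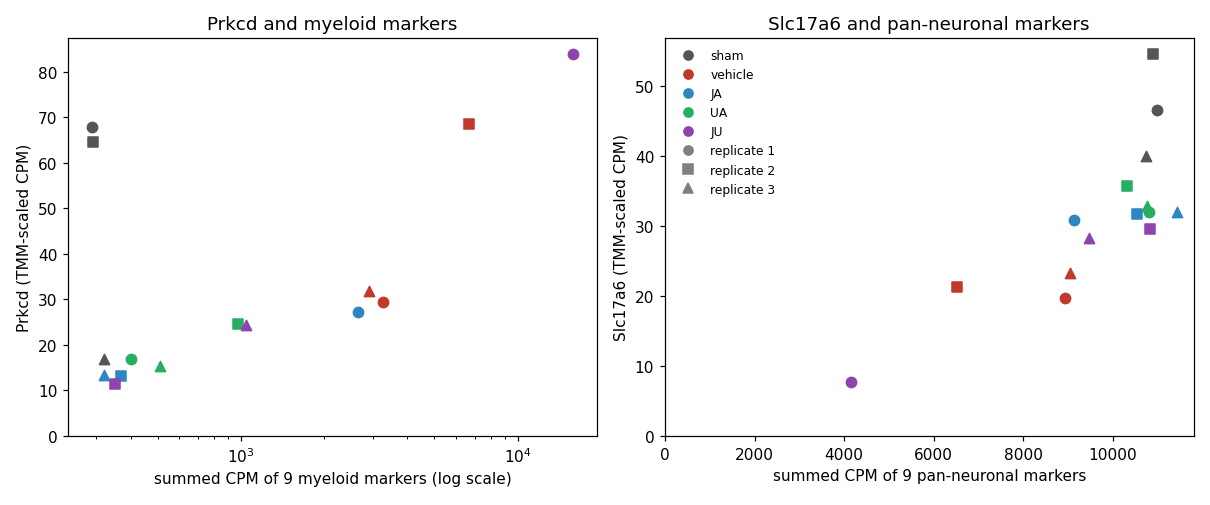
Left, Prkcd (TMM-scaled CPM) against the summed CPM of 9 myeloid markers on a log axis. Right, Slc17a6 against the summed CPM of 9 pan-neuronal markers on a linear axis, with 1 point per library, colour for the group and symbol for the replicate number. Sham replicates 1 and 2 have 68.0 and 64.6 CPM of Prkcd at the lowest myeloid sums, and JU replicate 1 has the lowest Slc17a6 at the lowest pan-neuronal sum.

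Plekhg1 (Entrez 213783; chromosome 10, 3740364 to 3967303) had 35.5, 35.4 and 22.7 CPM in sham, 21.6, 33.8 and 28.8 CPM in vehicle and 35.4, 19.3 and 26.8 CPM in JU. Its 4 highest libraries were those of Tcf7l2 and Prkcd. Synpo2 (Entrez 118449; chromosome 3, 123076519 to 123236149) had 14.3, 14.7 and 5.32 CPM in sham and 8.55, 10.3 and 5.59 CPM in vehicle. Its top 3 libraries were sham replicates 1 and 2 and vehicle replicate 2, and JU replicate 1 (8.39 CPM) ranked behind vehicle replicate 1 (8.55 CPM). Sham replicate 3 was far below the other sham libraries for all 4 of these genes, and below every vehicle library for Tcf7l2, Prkcd and Synpo2. Lef1 (Entrez 16842; chromosome 3, 131110471 to 131224356; exons shared with Gm43352 on the opposite strand) varied over a range of 2.10-fold, from 4.10 to 8.60 CPM, and all group ranges overlapped.

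These likenesses were seen after the values were known and are given as a description. Over the 15 libraries, which share the study's groups and the odd library, the Pearson correlation of log2 CPM between Tcf7l2 and Prkcd was 0.91. Among the 6 pairs of Tcf7l2, Prkcd, Synpo2 and Plekhg1 it ran from 0.64 to 0.93 with a median of 0.84, and the median was 0.85 without JU replicate 1. Among the 6 pairs of Slc17a6, Rora, Calb2 and Ramp3 the median was 0.75, and 0.48 without JU replicate 1, so much of that likeness rests on 1 library. Between the 2 sets the median over 16 pairs was -0.12, and 0.18 without JU replicate 1. With group means removed and all 15 libraries kept, the medians were 0.78 and 0.73 within the sets. Between them it was then -0.37, with a range of -0.72 to 0.12. Lef1 was left out of both sets. Over the 15 libraries its correlation was 0.62 with Synpo2 of the first set and 0.58 with Ramp3 of the second. Without JU replicate 1 these were 0.65 and 0.68. With Tcf7l2, its next highest, it was 0.31.

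**Figure D4:**
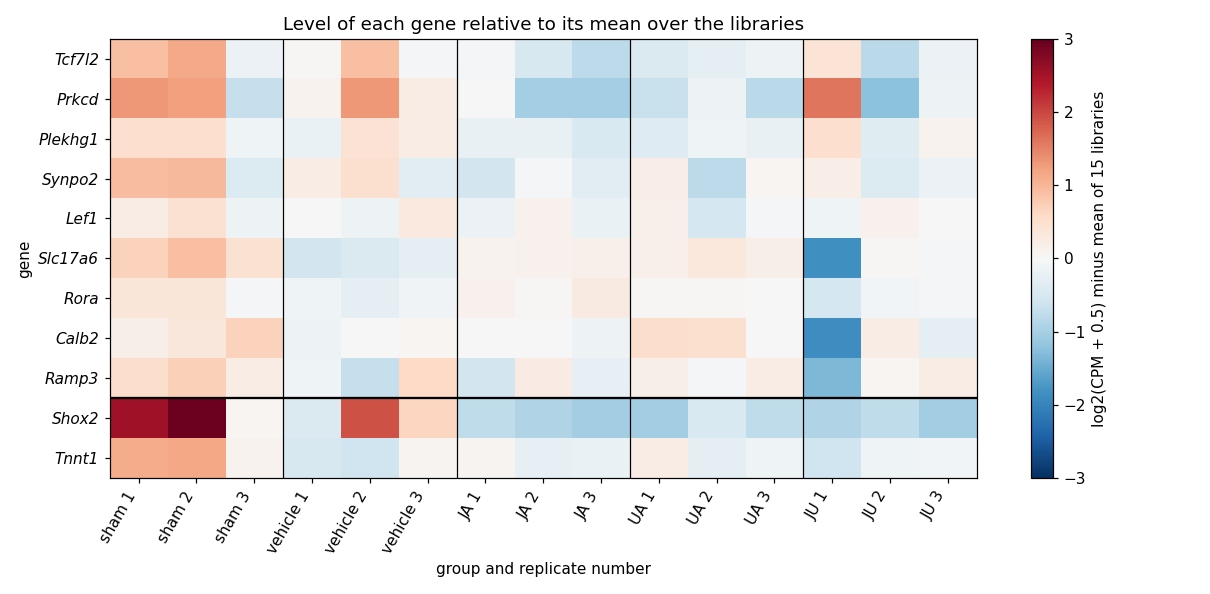
Level of each gene in each library as log2(CPM + 0.5) minus its mean over 15 libraries (colour from -3 to 3), with the 9 genes above the line and Shox2 and Tnnt1 below it. Sham replicates 1 and 2 are high for most rows, vehicle replicate 2 is high for Tcf7l2, Prkcd, Synpo2 and Shox2, and JU replicate 1 is low for Slc17a6, Rora, Calb2 and Ramp3.

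The treated groups were each compared with vehicle, and these comparisons share the 3 vehicle libraries. In JA, Slc17a6 stood 0.56 ± 0.34 above vehicle on the log2 scale (edgeR adjusted p = 0.363) and Rora 0.30 ± 0.13 above it (adjusted p = 0.249), or 0.07 with the GC correction. Tcf7l2 had a log2 fold change of -0.84 ± 0.41 (adjusted p = 0.285), Prkcd one of -1.27 ± 0.69 (adjusted p = 0.319) and Plekhg1 one of -0.48 ± 0.23 (adjusted p = 0.283). All 3 JA libraries lay above vehicle for Slc17a6 and Rora, 2 of the 9, beside 17.6% of all genes. They lay below it for Tcf7l2, Prkcd and Plekhg1, 3 of the 9, beside 15.7%. The median of the 9 fold changes was -0.18, against -0.00712 over all genes.

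None of the 9 passed between JA and vehicle with edgeR, which called 1.56% of genes, nor with DESeq2 or limma-voom. Rora alone had an unadjusted p under 0.05. Without JU replicate 1, edgeR called Slc17a6 and Rora higher in JA, 2 of the 9, beside 11.3% of genes called higher. JA replicate 1 differed from the other JA libraries in its myeloid marker sum (2653 CPM, against 319.9 and 370.0). Of the 3, it had the highest Tcf7l2 and Prkcd but the lowest Synpo2 (4.73 CPM, against 6.99 and 5.58 in replicates 2 and 3). Its Plekhg1 level (21.2 CPM) lay just below that of JA replicate 2 (21.3 CPM). A link between the myeloid sum and these levels was not tested.

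In UA, Slc17a6 stood 0.65 ± 0.34 above vehicle (edgeR adjusted p = 0.25) and Rora 0.18 ± 0.13 above it (adjusted p = 0.383), each without overlap, beside 21.7% of all genes. The Rora difference was -0.07 with the GC correction. Tcf7l2 had a log2 fold change of -0.70 ± 0.41 (adjusted p = 0.287) and Prkcd one of -1.19 ± 0.68 (adjusted p = 0.282), also without overlap, beside 22.2% of genes lower. The median of the 9 was -0.17, against -0.0136 over all genes. None of the 9 passed with edgeR (3.47% of genes called), DESeq2 or limma-voom, and 0 had an unadjusted p under 0.05. Slc17a6 was called higher in UA without JU replicate 1 (adjusted p = 0.00229; 28.2% of genes called in either direction) and with only the UA and vehicle libraries fitted (adjusted p = 0.0355; 14.6% called).

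In JU, no gene of the 9 was separate from vehicle, beside 2.35% of all genes higher and 1.88% lower. edgeR called 0% of genes, 300 genes had an unadjusted p under 0.05 with 0 of the 9 among them, DESeq2 called 2 genes and limma-voom 0. The fitted differences ran from -0.51 ± 0.41 for Tcf7l2 to 0.03 ± 0.34 for Slc17a6, with a median of -0.12 against 0.0309 over all genes. Without JU replicate 1 the median was 0.018, Slc17a6 stood 0.44 ± 0.12 above vehicle (edgeR adjusted p = 0.186), and the Prkcd and Tcf7l2 differences were -1.27 ± 0.65 (adjusted p = 0.269) and -0.88 ± 0.42 (adjusted p = 0.239). JU replicates 2 and 3, at 29.6 and 28.3 CPM of Slc17a6, lay above every vehicle library and below every JA and UA library.

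Against JA and against UA, all 3 JU libraries were lower for Slc17a6 and Rora. These are 2 of the 9 in each comparison, beside 10.6% of genes lower than JA and 13.9% lower than UA. The Slc17a6 difference was -0.53 ± 0.34 against JA (edgeR adjusted p = 0.365) and -0.62 ± 0.34 against UA (adjusted p = 0.253). Without JU replicate 1 it was -0.12 ± 0.12 against JA (adjusted p = 0.709) and -0.21 ± 0.12 against UA (adjusted p = 0.381). The Rora difference was -0.34 ± 0.13 against JA (adjusted p = 0.214) and -0.22 ± 0.13 against UA (adjusted p = 0.293), and without that library -0.20 ± 0.11 (adjusted p = 0.477) and -0.0838 ± 0.11 (adjusted p = 0.765). Prkcd had the largest fitted difference of the 9, 1.15 ± 0.68 against JA (edgeR adjusted p = 0.327) and 1.07 ± 0.68 against UA (0.316). Without JU replicate 1 these were -0.00094 ± 0.64 (0.9996) and -0.0859 ± 0.64 (0.965). The Calb2 difference against UA was -0.77 ± 0.37 (edgeR adjusted p = 0.194), and -0.37 ± 0.18 without that library (0.337). None of the 9 passed in either comparison with edgeR, which called 0% of genes against JA (3074 had an unadjusted p under 0.05, and DESeq2 called 634) and 1.08% against UA. DESeq2 and limma-voom also called 0 of the 9. Rora against JA had an unadjusted p under 0.05, the single such case in the 2 comparisons. Calb2 was called lower in JU than in UA when JU replicate 2 was left out (adjusted p = 0.0402; 20% of genes called), which leaves the odd library as 1 of 2.

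For any difference among the 5 groups, 3 of the 9 (Rora, Slc17a6 and Tcf7l2) had an unadjusted p under 0.05. None passed over all genes with edgeR (smallest adjusted p = 0.144, Rora; 3.67% of genes called). DESeq2 called Slc17a6 (20.9% of genes called) and limma-voom 0. Without JU replicate 1, edgeR called Rora and Slc17a6, beside 21.3% of genes.

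Other genes of thalamic relay neurons, 13 listed and 12 tested, had a median vehicle minus sham log2 fold change of -0.42. Of the 12, 8 were below 0 and 4 above it. edgeR called 2 of the 12 lower and 0 higher, beside 5.02% of all genes called in either direction. Tnnt1, a troponin T that is also enriched in thalamus, had 9.16, 9.53 and 4.28 CPM in sham and 2.71, 2.45 and 4.21 CPM in vehicle. It fell by 1.29 ± 0.32 on the log2 scale (edgeR adjusted p = 0.0403). Plcb4, a phospholipase C of thalamic and cerebellar neurons, fell from 82.8 ± 8.11 to 51.2 ± 9.39 CPM (SD, n = 3; log2 fold change -0.69 ± 0.18, edgeR adjusted p = 0.0457). Both calls were near the threshold: of 18 other settings, Tnnt1 passed in 7 and Plcb4 in 6. Plcb4 lost its call without any single sham or vehicle library (adjusted p = 0.0607 to 0.177), as did Tnnt1 except without vehicle replicate 3 (0.0477 to 0.167). In the treated groups against vehicle, and in JU against JA and against UA, 0 of the 12 passed.

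Shox2, a homeobox factor of thalamic and other brain neurons, had the highest Pearson correlation with the mean of the 9 genes among genes outside them. By rank (Spearman) its correlation was 0.68, against 0.85 for Prox1. Its mean of 1.26 CPM reached the limit of 1 CPM for that search through its highest libraries, and its median was 0.109 CPM. It had 105, 142 and 11 counts in sham replicates 1 to 3 (5.53, 7.40 and 0.574 CPM) and 5, 68 and 23 in vehicle (0.256, 3.34 and 1.10 CPM). In the 9 treated libraries it had 0 to 5 counts, and the highest of these was 0.247 CPM. Sham replicates 1 and 2 and vehicle replicate 2, the 3 libraries with the most Tcf7l2, also had the most Shox2, whereas JU replicate 1, with 1 count, did not. Shox2 passed the edgeR test for any difference among the groups (adjusted p = 0.0214), in 16 of 25 other settings, with adjusted p-values from 8.14e-07 to 0.444. The call was lost with limma-voom (0.287), on both log2 FPKM scales (0.0858 and 0.157) and in all 3 settings with a GC correction (0.0579 to 0.444). It was also lost without sham replicate 1 (0.0564), without sham replicate 2 (0.0712) and, narrowly, without UA replicate 3 (0.0503).

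Likeness was measured as the Pearson correlation, over the 15 libraries, with the mean log2 deviation of the 9 genes, among 13782 genes outside them with a mean of at least 1 CPM. It was 0.88 for Shox2, 0.81 for Tnnt1, 0.78 for Rab37, Trap1 and Patj, 0.76 for Epn3 and Pmch, 0.75 for Prox1, 0.74 for Gpr37 and 0.72 for Mlycd. By rank (Spearman) these genes ran from 0.48 for Pmch to 0.85 for Prox1, with 0.52 for Tnnt1. Pmch reached the limit of 1 CPM through sham replicate 2 (12.1 CPM), and its median was 0.332 CPM. For Tcf7l2 alone the leading genes were Vash2 (0.84), Aox1 (0.84), Shox2 (0.83), Pigk (0.80) and Fhdc1 (0.79). These are the highest of many values over few libraries and carry no test.

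Close relatives of the 9 genes (19, such as Rorb, Calb1 and Ramp2) had a median vehicle minus sham log2 fold change of -0.06, and 0 of them passed in any of the 6 comparisons. Calb1, a relative of Calb2, had a log2 fold change of -0.80 ± 0.31 (edgeR adjusted p = 0.12), and Rorb, a relative of Rora, one of -0.51 ± 0.21 (adjusted p = 0.145). Of 9 target genes of beta-catenin, which acts through Tcf7l2 and Lef1, 0 passed between vehicle and sham and 1 passed in the treated groups. Apcdd1, a Wnt inhibitor, fell from 66.4 ± 2.38 CPM in vehicle to 49.9 ± 4.27 CPM in UA (n = 3; log2 fold change -0.41 ± 0.10, edgeR adjusted p = 0.0472), and it passed in 7 of 18 other settings, in none of them with a vehicle or UA library left out (adjusted p = 0.0994 to 0.178).

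Markers of neighbouring regions and of other cells were read beside the 9 genes. Between vehicle and sham the median log2 fold change was -1.04 for 12 striatal projection neuron markers, -0.68 for 6 inhibitory neuron markers, -0.31 for 9 pan-neuronal markers and -0.23 for 8 cortical projection neuron markers. It was 0.32 for 5 habenula markers tested, -0.49 for 7 of the hypothalamus, -0.55 for 3 of midbrain and raphe, 0.12 for 7 of the hippocampus and 0.27 for 6 of the cerebellum. The habenula sum went the other way, at 70.8 to 76.1 CPM in sham and 55.6 to 58.2 CPM in vehicle. The mean log2 deviation of the habenula markers was 1.17 in vehicle replicate 2, against -0.21 and 0.07 in vehicle replicates 1 and 3. Among non-neuronal lists the median was 3.67 for 9 myeloid markers, 0.67 for 6 of smooth muscle, 0.53 for 6 of newly formed oligodendrocytes, 0.25 for 6 of astrocytes and 0.05 for 7 of endothelium. The single gene of these lists that passed in any of the 6 comparisons was Csf1r, a receptor of myeloid cells, which rose by 2.03 ± 0.50 between sham and vehicle (edgeR adjusted p = 0.0377). It passed in 8 of 18 other settings and lost its call without any single sham or vehicle library (adjusted p = 0.0533 to 0.148).

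Single libraries also differed in regional markers. Gpr151, which marks the habenula next to the thalamus, was 6.28 CPM in vehicle replicate 2, 1 of the high libraries for Tcf7l2, Prkcd and Shox2, and 0.492 to 1.23 CPM in the other 14. Tac2 (13.7 CPM) and Chrna3 (2.60 CPM), also habenula markers, were highest in that library too. Nwd2, the most abundant gene of the list, was 28.6 CPM there and 14.6 to 79.7 CPM elsewhere. Pmch, a hypothalamus marker, was 12.1 CPM in sham replicate 2 and at most 1.26 CPM elsewhere. Sham replicate 2 was the highest library for Tcf7l2, Slc17a6, Lef1, Synpo2 and Ramp3. Avp, also of the hypothalamus, was highest in vehicle replicate 3 (20.6 CPM) and then UA replicate 2 (13.1 CPM). The cerebellar marker Cbln3 was 17.4 CPM in UA replicate 2 and at most 5.36 CPM elsewhere. Smooth muscle markers summed to 176 CPM in JU replicate 1 and to 46.6 to 97.8 CPM elsewhere. Which part of the brain each library holds is not given, and its part in the levels of the 9 genes was not tested.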

How the data were processed

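Per the file headers, the deposited table gives read counts, whole numbers without normalization, beside FPKM values that the authors computed. Trimmomatic, HISAT2, Cufflinks, DESeq and the build GRCm38 (mm10) are named in the submitters' processing notes, and a stranded TruSeq kit in the labels. The counter, how it used strand, its annotation and all versions: not given in the sources used here. 1 count column matched no sample and was not used.

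A single model with 5 group terms was fitted to the counts of all 15 libraries in edgeR 4.0.16 (R 4.3.3), with TMM scaling and robust quasi-likelihood, over 15125 genes kept by filterByExpr. The biological coefficient of variation was 27.1%. Adjusted p-values are Benjamini-Hochberg values over all genes tested within a comparison, with a threshold of 0.05. The SE was taken as the log2 fold change over the root of F. DESeq2 1.42.0 and limma 3.58.1 were alternatives, the last also on log2(FPKM + 0.1) and log2(FPKM + 1). Replicates of every group differed beyond sampling noise. Positions and exon overlaps come from GENCODE on GRCm38, promoters from RefSeq.

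The 9 genes and the 17 other lists (150 genes, all in the table) were chosen with earlier results of these data known. The text names all 9, the 10 genes most like their mean and the 5 most like Tcf7l2. From each other list the rule takes up to 4 genes with a mean of at least 1 CPM and the smallest p for any difference among groups, and not all of these are described.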

Additional observations from a re-analysis of the deposited data

How the results depend on the processing

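The count of the 9 genes called was 0 in every comparison as fitted. Between vehicle and sham it was 2 with DESeq2, 3 with only the groups compared, 2 when a GC correction was combined with leaving out JU replicate 1 (added after seeing the data), and 0 to 3 over single libraries left out. Between UA and vehicle it was 1 with only the groups compared, 1 with that added setting, and 0 to 1 over libraries left out. For any difference it was 1 with DESeq2, 1 with the added setting, and 0 to 2. Leaving out a library gave 0 to 2 for JA minus vehicle and 0 to 1 for JU minus UA. All counts above 0 with a library left out came without JU replicate 1, except Calb2 in JU minus UA, which came without JU replicate 2. The cause was not tested.

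Medians of the 9 log2 fold changes ran over left-out libraries from -0.43 to 0.013 in JA, -0.24 to 0.018 in JU and -0.33 to 0.024 in UA, all against vehicle. The JU median was 0.016 with the added setting, and the vehicle minus sham median was -0.19 on log2(FPKM + 1), a scale that understates changes of low genes. With the GC correction alone, with the replicate block added, and with JU replicate 1 left out, Calb2 in JA minus vehicle was 0.0945, 0.10 and 0.0944, and Rora in UA minus vehicle -0.0726, -0.0732 and -0.0734. In JU minus vehicle the added setting gave 0.0478 for Calb2, 0.016 for Lef1, 0.13 for Ramp3 and 0.0951 for Rora. Slc17a6 there was -0.0558 with GC correction and replicate block, -0.22 on log2(FPKM + 0.1), -0.14 on log2(FPKM + 1), -0.20 with limma-voom and -0.0412 with the replicate block.

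Directions also turned over left-out libraries. In JU minus vehicle the ranges were -0.84 to 0.0252 for Calb2, -0.15 to 0.0927 for Lef1, -0.28 to 0.14 for Plekhg1, -1.27 to 0.39 for Prkcd, -0.53 to 0.18 for Ramp3, -0.11 to 0.11 for Rora and -0.24 to 0.44 for Slc17a6. In JA minus vehicle they were -0.0685 to 0.0401 for Calb2, -0.26 to 0.013 for Lef1 and -0.44 to 0.25 for Ramp3. In UA minus vehicle they were -0.33 to 0.024 for Lef1 and -0.15 to 0.54 for Ramp3, and in vehicle minus sham -0.31 to 0.000687 for Lef1 and -0.71 to 0.0756 for Prkcd.

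Correlations between libraries did not show a pairing by replicate number, and they cannot exclude one. Of 30 same-numbered pairs, 7 correlated above 0.1. Their range was -0.73 to 0.70, against -0.69 to 0.77 for pairs with different numbers. Of 15 libraries, 6 correlated best with a library of their own number. The replicate block gave 0 of the 9 in every comparison, with a smallest adjusted p of 0.0842 for vehicle minus sham and 383 genes called in place of 760. That count was 2507 with DESeq2, 3763 with only the groups compared, 1 with the GC correction, 0 without sham replicate 3 and 5172 without JU replicate 1. It was 83 to 365 without any other single sham or vehicle library. The use of 3 libraries a group and counts as low as 62 for Tcf7l2 limit what can be detected.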
